A study of Drosophila melanogaster with 12 samples.

Results

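A set of 163 genes in Drosophila melanogaster embryos gave more signal in m6A miCLIP than their mRNA-seq level in every timepoint from 1.5 h of development to hatching. The genes were selected on those values: a gene had to reach at least 1 FPKM (fragments per kilobase of gene, scaled to library size) in miCLIP and in mRNA-seq, and its ratio of (miCLIP FPKM + 1) to (mRNA-seq FPKM + 1) had to exceed 2-fold in each of T3, T4, T5 and T6. Of 14977 genes in the table, 6240 met the FPKM minimum in all 8 of those libraries, and 163 of the 6240 (2.61%) passed. Another 40 rows past 2-fold were left out by name, namely 21 snoRNAs, 9 snRNAs, 7 numbered non-coding genes, 2 mitochondrial rRNAs and the 7SL RNA. Because the values of T3 to T6 chose the members, their size there is a description and carries no test. The members were 149 nuclear genes, of which 148 code for protein, and 14 genes of the mitochondrial DNA.

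Embryos of wild-type flies were collected whole in 6 windows after egg laying: 0 to 45 min (named T1), 45 to 90 min (T2), then 1.5 to 6 h as T3, 6 to 12 h as T4, 12 to 18 h as T5 and finally 18 to 24 h as T6. The collection protocol names Canton S and the strain entry of the labels reads yw, and no transgene or treatment is named for any group. The same RNA samples were used for both assays. Each assay had 1 library per timepoint, so no difference below has a replicate check, no p-value is given, and intervals cover counting error alone.

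N6-methyladenosine, m6A, is an internal mark of messenger RNA that a nuclear methyltransferase complex writes and YTH-domain proteins read. In miCLIP, fragmented RNA is crosslinked to an anti-m6A antibody, pulled down and sequenced, so a gene's read number reflects both how much of its RNA was present and how well its fragments were recovered. The ratio sets the miCLIP level against the mRNA-seq level of the same RNA, although it still varied with that level, as given with the gene structure. It does not separate methylation from other reasons for recovery, and no library without the antibody or from methyltransferase mutants was analysed here. Embryos of T1 and T2 live mostly on RNA laid down by the mother, and the bulk of zygotic transcription starts in T3.

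The miCLIP libraries held 4251686 to 14484576 reads on genes and the mRNA-seq libraries 23127955 to 25486971. Summed FPKM differed between timepoints, from 314435 (T1) to 1060880 (T6) in mRNA-seq and from 456917 (T2) to 988201 (T6) in miCLIP. FPKM levels compared across timepoints therefore depend on this scaling. The members took 5.37% to 8.41% of the miCLIP reads and 1.03% to 2.83% of the mRNA-seq reads. Stage markers in mRNA-seq followed the labels for osk, nos and pgc (highest in T1), Kr, eve and ftz (T3) and brp, Syt1 and Mlc2 (T6). Other markers peaked elsewhere: maternal bcd in T2 and gcl in T5, early zygotic kni and neuronal elav in T4, and up, a muscle gene, in T5. Reads behind the members were ample in most cases, with 154 of the 163 at 100 or more reads in each of the 8 libraries of T3 to T6. The exact Clopper-Pearson 95% interval of the ratio lay above 2-fold in all 4 timepoints for 145 of the 163.

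Nuclear members and mitochondrial members moved in opposite directions over time. The nuclear members had median log2 ratios of 1.60, 1.41, 1.93 and 2.22 from T3 to T6, the last equal to 4.65-fold. The median of the mitochondrially encoded members was 4.57, 5.22, 4.34 and 3.52 over the same timepoints. The medians of all genes tested stayed near 0, between -0.15 and -0.07, but their spread differed, with 6.28% over 2-fold in T4 and 18.3% in T6. The lowest ratio of a nuclear member fell in T4 in 82 of 149 cases (55.0%), against 20.3% of all genes tested, and the highest fell in T6 in 89 cases (59.7%), against 32.5%. The same values chose the members, and the other genes were not chosen this way. These counts therefore describe the set and cannot be read as a separate result.

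**Figure D1:**
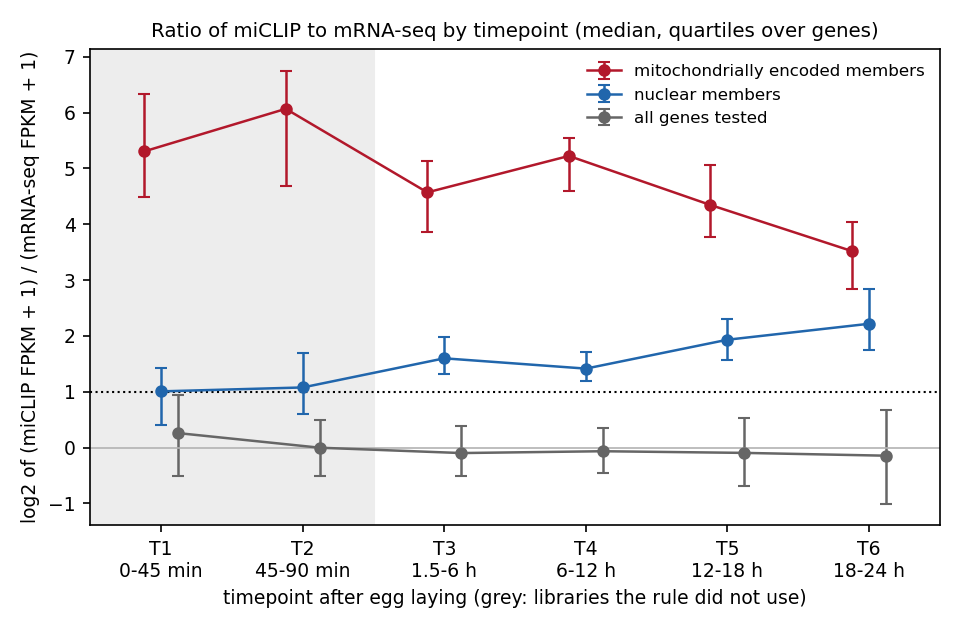
Median log2 ratio of miCLIP to mRNA-seq (points) with the quartiles over genes (bars) in each timepoint, for 14 mitochondrially encoded members, 149 nuclear members and 6240 genes tested. The nuclear median rises from 1.41 in T4 to 2.22 in T6 while the mitochondrial median goes from 5.22 to 3.52; the dotted line is the 2-fold threshold, and T1 and T2 (grey) hold only genes whose FPKM reaches 1 in miCLIP and in mRNA-seq.

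The threshold did not fall in a gap. Just inside it were Sxl, the master switch of sex determination, alpha-Man-Ia, a mannosidase, and run, a pair-rule transcription factor, whose lowest log2 ratios were 1.01, 1.01 and 1.003. Just outside were Fur1, a furin-type protease, CG15382 and N, the Notch receptor, at 0.9998, 0.997 and 0.995. In all, 42 members had a lowest ratio under 2.2-fold, and 85 other genes reached at least 1.8-fold. For some genes at the edge the counting interval crossed 2-fold, as for Sxl, whose interval in T4 ran from 0.98 to 1.08 on the log2 scale. With every library rescaled to the same sum, Sxl, alpha-Man-Ia and run fell under the threshold, at lowest log2 ratios of 0.71, 0.98 and 0.72.

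All 13 protein-coding genes of the mitochondrial DNA were members, together with the tyrosine tRNA trnY, the only one of 22 mitochondrial tRNA rows that met the FPKM minimum. They encode subunits of the respiratory chain and ATP synthase and are transcribed inside the organelle as long precursors that are cut into single messages. The 11 largest lowest ratios of the whole set were theirs.

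ND6, a complex I subunit, stood at 1142, 1509.6, 836, 909.7, 783 and 882 FPKM in miCLIP from T1 to T6 and at 1.63, 3.89, 8.14, 5.65, 10.8 and 20.8 FPKM in mRNA-seq. Its log2 ratios over the 6 timepoints were 8.76, 8.27, 6.52, 7.098, 6.06 and 5.34. The miCLIP level varied less than 2-fold, and the mRNA-seq level was lowest in T1 and highest in T6.

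COX3, a subunit of complex IV and the mitochondrial member with the highest mRNA-seq level, stood at 1260.4, 2331, 2759, 3592, 5295 and 3803 FPKM in miCLIP. In mRNA-seq it was at 271, 274, 467, 414, 642 and 853. These levels were not rescaled, and the summed mRNA-seq FPKM also went from 314435 in T1 to 1060880 in T6. The ratio of COX3 was the smallest of the mitochondrial members in T1 to T4, at 2.21, 3.08, 2.56 and 3.12 on the log2 scale. COX3 shared the smallest in T6 with COX1, at 2.15 each. trnY ranked second of all members by its lowest ratio, 5.43, but rested on 6 to 28 mRNA-seq reads per library.

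The 7 complex I subunits (the ND rows) separated from the other 6 mitochondrial messages. The lowest ratio of each ND gene exceeded the lowest ratio of every subunit of complexes III, IV and V. In T3 the ND genes had 605 to 1001 FPKM in miCLIP and 8.14 to 39.5 in mRNA-seq. The 6 others had 2366 to 2855 in miCLIP and 121 to 467 in mRNA-seq. Both assays thus placed the ND genes below the others, per length of gene.

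Time ran in the same direction for nearly all of them. mRNA-seq levels were highest in T6 in 13 of 13 protein-coding genes. The ratio was lowest in T6 in 12 of 13, with ND4L as the exception (5.71 in T5, 5.73 in T6). From T3 onwards it was highest in T4 for all 14 members. Scaling the libraries to equal sums left the T6 minimum in 13 of 14, as before, while the members with their highest mRNA-seq level of T3 to T6 in T6 went from 13 to 5. The mitochondrial members took 0.189%, 0.146%, 0.161% and 0.208% of the mRNA-seq reads from T3 to T6. Embryos were sampled whole, so library scaling, more cells or more organelles and more RNA per cell cannot be told apart here.

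**Figure D2:**
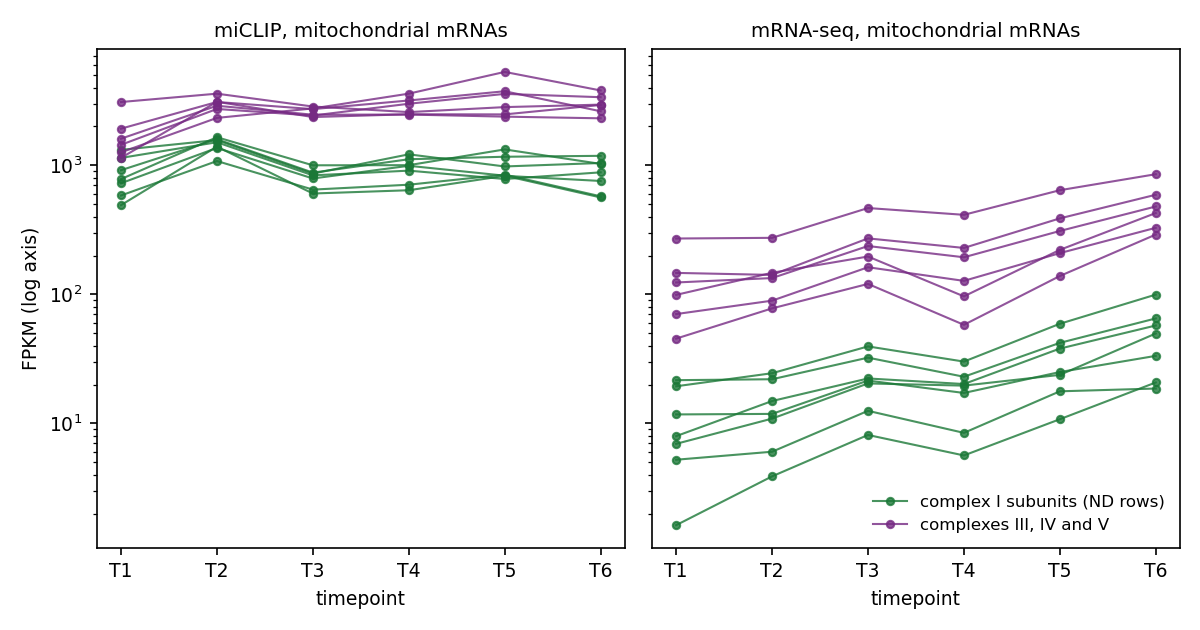
FPKM on a log axis of the 13 mitochondrial messages in miCLIP (left) and mRNA-seq (right) in T1 to T6, 1 line per gene. miCLIP levels lie between 492 and 5295, and mRNA-seq levels between 1.63 and 853, highest in T6 for every gene, with the 7 complex I genes below the 6 others from T2 on in miCLIP and in every timepoint in mRNA-seq. Levels are not rescaled. With libraries scaled to equal sums, fewer mitochondrial members had their highest mRNA-seq level of T3 to T6 in T6.

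Lists of transcription factor and signalling genes held larger shares of members than the genes tested as a whole. Of the homeodomain factors 10 of 55 tested were members (18.2%), of zinc finger factors and nuclear receptors 11 of 53 (20.8%), and of bHLH, Sox, forkhead, ETS and other factors 13 of 71 (18.3%), against 2.61% of all genes tested. In Notch, EGFR and FGF signalling 11 of 44 were members (25%) and in Hedgehog, Wingless and Dpp signalling 10 of 53 (18.9%). None of 81 ribosomal protein genes, 18 proteasome genes and 72 nuclear genes for mitochondrial ribosomal proteins was a member. The lists overlap in a few genes such as pnt and aop, and 79 nuclear members belonged to none of them. These counts rest on the values that chose the members and were not tested.

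**Figure D3:**
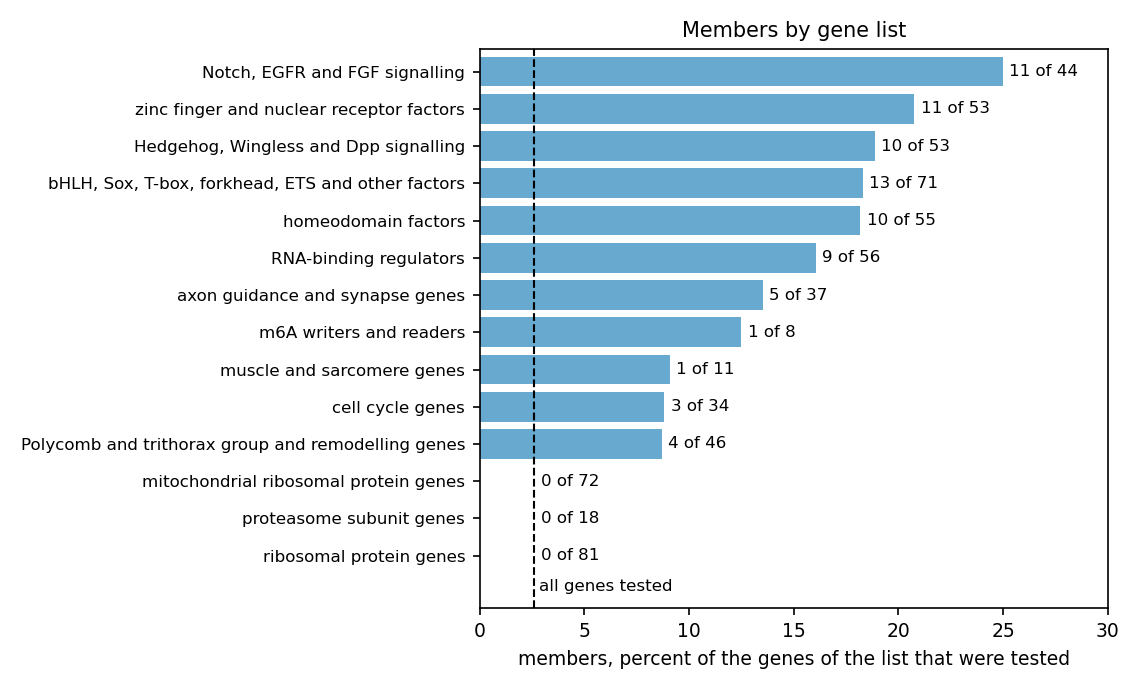
Members as a percent of the genes tested in each of 14 gene lists (bars), with the counts beside the bars and the share of all genes tested, 2.61%, as a dashed line. Signalling and transcription factor lists lie between 18.2% and 25%, and the 3 lists of ribosomal, proteasome and mitochondrial ribosomal protein genes are at 0.

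Homeodomain genes held the nuclear member with the largest lowest ratio. hth, a homeodomain cofactor of Hox proteins, stood at 25.2, 28.4, 224, 192, 269.8 and 212 FPKM in miCLIP over the 6 timepoints. In mRNA-seq hth was at 3.06, 3.06, 20.2, 28.5, 26.0 and 17.0 FPKM. Its log2 ratio was 2.69 in T1, and the lowest of T3 to T6 was 2.71 in T4, where 10898 miCLIP reads and 7237 mRNA-seq reads gave an interval of 2.71 to 2.79 for the ratio without the added 1. The ratio was over 6-fold in all 6 timepoints, those the rule did not use included.

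Ubx, the Hox gene of the posterior thorax and anterior abdomen, was at 10.9, 16.9, 47.0, 108, 64.7 and 83.4 FPKM in miCLIP and at 0.394, 0.464, 8.58, 16.7, 11.9 and 6.396 in mRNA-seq. The mRNA-seq level was below 1 in T1 and T2, with 72 and 77 reads, while miCLIP had 446 and 416. The other Hox members were Antp, abd-A, Dfd, Abd-B and Scr, with lowest log2 ratios of 1.67, 1.36, 1.24, 1.16 and 1.08. The remaining homeodomain members were oc (1.68), Optix (1.04) and vvl (1.03).

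Zinc finger members were led by vfl, listed today as zld, the maternal activator of the zygotic genome. It stood at 74.7, 53.5, 138, 61.8, 47.3 and 57.3 FPKM in miCLIP and at 29.6, 33.8, 34.1, 14.2, 10.8 and 11.5 FPKM in mRNA-seq. Its mRNA-seq level was close in T2 and T3 and lower from T4 on. Its ratio was nearly flat from T3 on, between 1.99 and 2.22. The ecdysone pathway contributed EcR, the hormone's receptor, tai, a coactivator, and ftz-f1, a nuclear receptor that follows the ecdysone pulse.

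From T3 to T6 the ratio of ftz-f1 rose most among the members. In miCLIP it stood at 52.9, 40.1, 25.7, 7.73, 452 and 287 FPKM and in mRNA-seq at 22.4, 21.1, 7.28, 3.16, 117 and 8.78. From T5 to T6 the mRNA-seq level dropped from 117 to 8.78 FPKM while miCLIP went from 452 to 287. The log2 ratio thus moved from 1.95 to 4.88. When every library was rescaled to the same sum, ftz-f1 fell under the 2-fold threshold in T4. A gene on the same strand shares 29.4% of the exon length of ftz-f1, and the share of its reads that belong to that gene is not known.

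**Figure D4:**
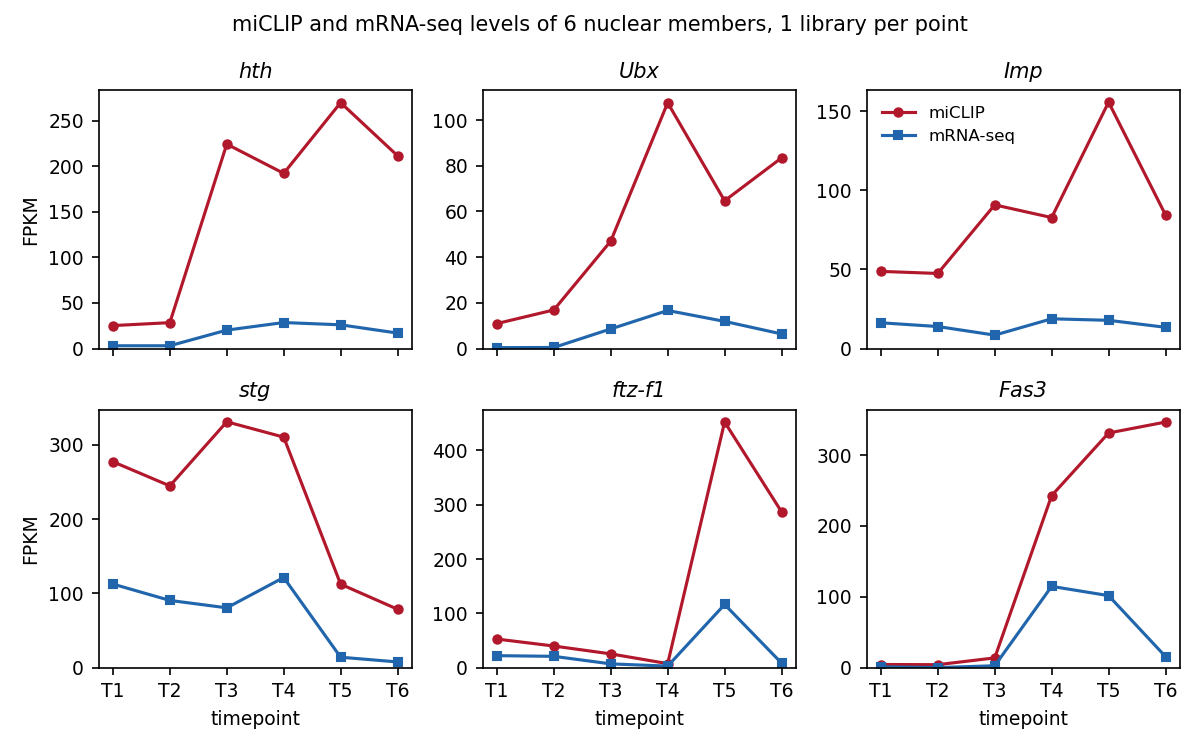
FPKM in miCLIP (circles) and mRNA-seq (squares) of 6 nuclear members in T1 to T6, 1 library per point, each panel with its own axis from 0. hth, Ubx and Imp stay well above their mRNA-seq level in every timepoint, whereas for stg, ftz-f1 and Fas3 the mRNA-seq level is lower in T6 than in T5 by a larger factor than the miCLIP level, which in Fas3 is not lower at all.

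The list of bHLH, Sox, forkhead, ETS and other factors held 13 members. Pdp1 (a bZIP factor of the circadian clock), crp (a bHLH factor), pnt (an ETS effector of receptor tyrosine kinases) and CrebA (a bZIP regulator of secretory genes) led it, at lowest log2 ratios of 1.95, 1.59, 1.54 and 1.48. Pdp1 was higher in later embryos in both assays, with 0.437, 3.54, 20.2, 53.7, 194 and 112 FPKM in miCLIP and 0.806, 0.762, 1.89, 13.04, 33.2 and 28.2 FPKM in mRNA-seq over the 6 timepoints, highest in T5 in both. CrebA was highest in mRNA-seq in T4, at 34.6 FPKM, and in miCLIP in T5, at 135.

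RNA-binding regulators supplied 9 of 56 tested (16.1%), against 2.61% of all genes tested. Imp, the fly homologue of the IGF2 mRNA-binding proteins, was at 48.8, 47.5, 90.8, 82.8, 156 and 84.5 FPKM in miCLIP and 16.3, 13.9, 8.48, 18.8, 17.8 and 13.4 FPKM in mRNA-seq. Its log2 ratio was 1.53 in T1 and 1.70 in T2, and from T3 to T6 it lay between 2.08 (T4) and 3.28 (T3). A2bp1 (the splicing factor Rbfox1), pum (a translational repressor), Tis11, bru-3, msi and how were members too, with lowest log2 ratios of 1.65, 1.46, 1.36, 1.29, 1.07 and 1.03.

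Sxl and fl(2)d, which act together in the splicing of Sxl itself, were both in the set. Sxl stood at 39.6, 27.3, 94.5, 73.3, 85.0 and 72.0 FPKM in miCLIP and at 17.6, 11.6, 45.5, 35.9, 32.1 and 21.4 in mRNA-seq. Its ratio was 1.12 in T1 and 1.16 in T2 and reached 1.71 in T6. With every library rescaled to the same sum, the lowest ratio of Sxl over T3 to T6 was 0.71, under the threshold, and that of fl(2)d was 1.09. fl(2)d, the homologue of WTAP in the methyltransferase complex, had log2 ratios of 0.63, 1.35, 1.43, 1.40, 1.42 and 1.89.

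fl(2)d was the only member among 8 tested genes for m6A writers and readers. The nuclear reader YT521-B missed the rule in T3 alone, at 0.55, and was at 1.17, 1.34 and 1.62 in T4 to T6. nito, a partner of the complex, was at 0.32 to 0.66 in T3 to T6, and the cytoplasmic reader CG6422 at 0.08 to 0.48. vir was below 0 throughout, at -0.69, -0.37, -0.99 and -0.09 in T3 to T6, and Hakai lay between -0.18 and 0.63. The catalytic subunit Ime4 was not among the 8, since it was listed at 0 in miCLIP in T5 and T6, with 3.71 and 5.54 FPKM in mRNA-seq, and its partner CG7818 was lower in miCLIP in T3, T4 and T5, at -1.06, -0.44 and -2.41.

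Signalling members included ligands, receptors and inhibitors. Ligands were bnl (an FGF for the tracheae), vn (an EGFR ligand), pyr (an FGF), Dl (the Notch ligand) and Wnt4, with lowest log2 ratios of 2.02, 1.63, 1.14, 1.56 and 1.27. Receptors were fz and fz2, at 1.61 and 1.10. Inhibitors of these pathways were sty (RTK signalling, 1.82), nkd (Wingless, 1.73), Notum (Wingless, 1.28), brk (Dpp targets, 1.13) and sog (Dpp, 1.08).

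bnl was at 0.0241, 5.63, 23.2, 34.7, 30.4 and 29.0 FPKM in miCLIP and 0.318, 0.403, 4.14, 6.74, 6.72 and 4.01 in mRNA-seq. sty stood at 0.0405, 8.12, 42.7, 90.6, 117 and 115.2 FPKM in miCLIP and 0.829, 0.678, 11.3, 24.9, 25.1 and 17.5 FPKM in mRNA-seq. Both were near 0 in miCLIP in T1 and above 5 FPKM in T2, when their mRNA-seq level was still under 1. nmo, a kinase that tunes Wingless signalling, and rdx, a Hedgehog target, had their largest ratios in T6, at 3.24 and 3.005. rdx was below 0 in T1, at -0.58.

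Chromatin genes held a smaller share of members than the transcription factor and signalling lists. Their share was still above the 2.61% of all genes tested. Of 46 tested Polycomb, trithorax and remodelling genes 4 were members (8.70%), namely tna, a trithorax group gene, Trl, the GAGA factor, Pc, the founding Polycomb protein, and skd, a Mediator subunit. Their lowest log2 ratios were 1.92, 1.78, 1.07 and 1.03. With every library rescaled to the same sum, Pc and skd fell under the threshold, at 0.79 and 0.74. Trl shares over 20% of its exon length with a gene on the same strand.

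Axon guidance and synapse genes supplied 5 of 37 (13.5%), against 2.61% of all genes tested. Syx1A, a SNARE protein of the synapse, was at 33.5, 56.6, 119, 61.2, 203 and 127 FPKM in miCLIP and 18.3, 18.1, 17.8, 11.2, 29.8 and 29.6 FPKM in mRNA-seq. comm, which clears the Robo receptor from growing axons, Sema-1a, a guidance cue, and NetA, a netrin, had lowest ratios of 1.39, 1.32 and 1.03. Fas3, an adhesion protein of septate junctions, had the widest mRNA-seq range of all members in T3 to T6. Fas3 fell under the 2-fold threshold in T4 when every library was rescaled to the same sum. Its miCLIP levels were 4.69, 4.46, 14.0, 243, 331 and 346 FPKM and its mRNA-seq levels 1.41, 0.371, 2.92, 114.8, 102 and 15.9. Its mRNA-seq level dropped from 102 to 15.9 FPKM between T5 and T6, and its miCLIP level was 331 and 346.

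Of 34 cell cycle genes tested 3 were members (8.82%), against 2.61% of all genes tested. They were stg, the Cdc25 phosphatase that triggers mitosis, CycE, a G1 cyclin, and E2f1, a factor for S-phase genes. stg stood at 277, 245, 331, 310.3, 112 and 78.8 FPKM in miCLIP and 113, 90.7, 80.7, 121, 14.3 and 7.93 in mRNA-seq. Both assays were lower in T5 and T6 than before, mRNA-seq by more. E2f1 was at -0.88 on the log2 scale in T1, 0.97 in T2 and 1.08 to 2.12 in T3 to T6.

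Some members belonged to no list. Those named here, and the members of each list beyond its leading 4, were chosen after their values were seen. Unr, an RNA-binding protein that takes part in the repression of msl-2 translation, and roX1, a non-coding RNA of the dosage compensation complex and the only nuclear member without a protein product, both serve dosage compensation. Unr was at 77.6, 143, 191, 106, 153 and 111 FPKM in miCLIP and 35.2, 31.8, 18.6, 19.2, 13.7 and 12.1 in mRNA-seq. roX1 was at 60.6, 54.0, 412, 377, 497 and 384 FPKM in miCLIP and 8.81, 11.4, 113, 109, 100.5 and 75.05 FPKM in mRNA-seq. The female germline thioredoxin dhd was at 3323, 2582, 75.7, 63.4, 42.5 and 86.0 FPKM in miCLIP and 2947, 1158, 24.6, 3.24, 7.33 and 12.0 FPKM in mRNA-seq, with a log2 ratio of 0.17 in T1 and 1.16 in T2. Hsp70Aa reached 4.54 in T4, but near-identical copies of this heat shock gene could share its reads, so that its values are uncertain.

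Outside the lists the members also held phosphatases and other regulators of kinase pathways. Mkp3, which dephosphorylates ERK, had a lowest log2 ratio of 1.81 and ratios of 2.13 and 2.00 in T1 and T2. puc, the JNK phosphatase, had a lowest ratio of 1.07 and edl one of 1.90. Ilp6, an insulin-like peptide, was at 1.86 and wts, the kinase of the Hippo pathway, at 1.22. The muscle list gave 1 member of 11 tested, how (9.09%, against 2.61% of all genes tested).

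mRNA-seq levels of the nuclear members were highest in T4 for 61 of 149 (40.9%), against 16.2% of genes tested, and in T6 for 11 (7.38%), against 30.6%. miCLIP levels peaked in T5 for 62 (41.6%), against 27.8%. From T5 to T6 the mRNA-seq level was over 2-fold lower in 20 of 149 nuclear members (13.4%), against 6.09% of the genes tested, and the miCLIP level in 5 (3.36%), against 10.1%. mRNA-seq in T6 was lower at all in 124 of 149 (83.2%), against 44.2%, and over 2-fold higher in none, against 9.21%. Rescaling the libraries to equal sums changed the count for T6 in mRNA-seq from 11 to 1 and that for T5 in miCLIP from 62 to 37. The mRNA-seq values are the denominators of the ratios that chose the members, so these counts describe them and cannot be read as a separate result.

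T1 and T2 offered the same measure in 4 libraries that the rule did not use. In T1, 118 members met the FPKM minimum in both assays and 66 of them (55.9%) were over 2-fold, against 24.5% of all genes with that minimum. With every library rescaled to the same sum, the T1 count was 38 of 118 (32.2%), against 12.3% of all genes. In T2 the numbers were 81 of 131 members (61.8%), against 11.2%. The nuclear members alone were at 52 of 104 (50.0%) and 67 of 117 (57.3%), and all 14 mitochondrial members passed in both. The median log2 ratio of nuclear members was 1.01 in T1 and 1.08 in T2, below their medians of T3 to T6.

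The shares leave out members below the minimum. In T1, 45 nuclear members were left out, 23 for both assays, 12 for miCLIP alone and 10 for mRNA-seq alone. In T2, 32 were left out, 25 of them for mRNA-seq alone. With no minimum, 76 of 163 members were over 2-fold in T1 (46.6%, against 10.5% of all genes) and 105 in T2 (64.4%, against 7.80%). Here all genes were 13593, of which 8281 in T1 and 7344 in T2 were under the minimum. Genes without miCLIP reads cannot pass, and every member met the minimum in T3 to T6, so this contrast is not between like sets.

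Being over 2-fold in all 6 timepoints was reached by 46 genes of 4760 with the minimum in all 12 libraries, by the rule's construction all members, 14 mitochondrial and 32 nuclear. In T1 the gap between the members' median and that of all genes was 0.83 on the log2 scale, and in T2 it was 1.16. Among nuclear members with at least 1 FPKM in both libraries, the largest ratio in T1 was that of CG42238, at 3.18, followed by CG34380 (2.98) and edl (2.92), an antagonist of ETS factors. Ubx (3.10) and CrebA (3.06) lay in the same range in T1 but were under 1 FPKM in mRNA-seq. In T2, with the same minimum, it was that of cuff, a piRNA pathway gene, at 3.84, followed by inaD (3.61), a scaffold of the phototransduction complex, and hth (2.86). Ubx, again under the minimum, was also at 3.61. The smallest in T2 were those of CG9650, CG11873 and tai, at -0.37, -0.35 and -0.26.

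Some nuclear members were low in miCLIP in T1 and higher in T2, as were other genes. In T1, 35 of 149 were under 1 FPKM in miCLIP, and 30 of the 35 reached 1.31 to 10.5 FPKM in T2, with a median of 4.75 FPKM and 101.5 reads. After 1 was added to each FPKM, the mRNA-seq levels of these 30 had log2 changes from -0.20 to 0.49, with a median of -0.0039. Of the 35, 23 were under 1 FPKM in mRNA-seq too in T1, where the added 1 keeps such changes small. tna, for example, was at 0.107 FPKM in miCLIP in T1 and 9.92 in T2, and at 1.91 and 2.02 in mRNA-seq. Of all 6226 nuclear genes tested, 1332 were under 1 FPKM in miCLIP in T1, and 961 of these made the same step (72.1%, against 85.7% of the members), to a higher median of 8.92 FPKM. The step is thus common to the genes tested.

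Most nuclear members had long UTRs, a trait that the rule did not use. Lengths come from the Ensembl annotation of assembly BDGP6.54, in which every member was matched. The longest annotated 3′ UTR had a median of 1868.5 bases in the 148 protein-coding members and 336 in the 6025 other nuclear protein-coding genes tested. In the transcript with the longest coding part, the 5′ UTR had a median of 714.5 bases against 160, the coding part 1884 against 1422, and the gene from end to end 22951.5 against 2880. Intron numbers were close, with medians of 4 and 3.

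By quintiles of the genes, 114 of 148 members fell in the quintile with the longest 3′ UTRs, where they were 9.22% of the genes, and 118 in the quintile with the longest 5′ UTRs (9.55%). The median lowest log2 ratio of all genes also rose from the shortest to the longest quintile. It went from -1.24 to 0.10 for the 3′ UTR and from -1.07 to 0.02 for the 5′ UTR. A higher ratio with longer UTRs was thus not particular to the members. Coding length separated them less, with 36 members in the top quintile (2.91%) and 52 in the next one (4.21%). Members were also more common at low mRNA-seq levels, with 60 in the lowest quintile (4.86%) and 6 in the highest (0.486%), and the median lowest log2 ratio of all genes went from -0.47 to -1.04 between these quintiles. The mRNA-seq level of T3 to T6 is the denominator of these ratios, so both trends arise in part by construction. They describe the set and cannot be read as a separate result. Among genes between the nuclear members' lower and upper quartile of mRNA-seq level the difference in structure was present too, at 1871 against 383 bases for the longest 3′ UTR and 746 against 189 for the 5′ UTR.

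**Figure D5:**
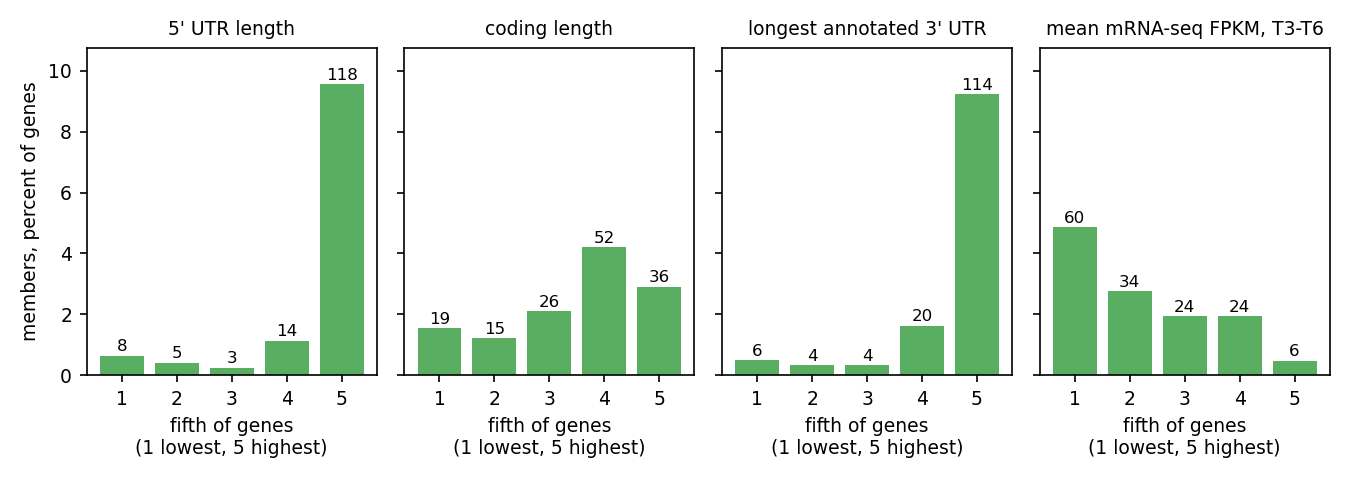
Members as a percent of the nuclear protein-coding genes tested, by quintiles of 5′ UTR length, coding length, longest annotated 3′ UTR and mean mRNA-seq FPKM of T3 to T6 (bars, with the number of members above each). The top quintiles of 5′ and 3′ UTR length hold 118 and 114 of 148 members, and the lowest quintile of mRNA-seq level holds 60. That level is the denominator of the ratios that chose the members.

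The values of T1 and T2 were also compared within and below the top quintile of UTR length, a coarse split, since that quintile runs from 936 to 18494 bases for the 3′ UTR. In T2, 50 of 90 members from the top quintile of 3′ UTR length were over 2-fold (55.6%), against 100 of 1011 other genes of that quintile (9.89%). Below that quintile the counts were 16 of 26 members (61.5%) and 389 of 4426 other genes (8.79%). In T1 the top quintile gave 39 of 81 (48.1%) against 172 of 928 (18.5%), and the genes below it 12 of 22 (54.5%) against 886 of 3775 (23.5%). Split by 5′ UTR length, the top quintile gave 50 of 90 members (55.6%) against 114 of 961 other genes (11.9%) in T2 and 43 of 81 (53.1%) against 194 of 852 (22.8%) in T1. Below it the counts were 16 of 26 (61.5%) against 375 of 4476 (8.38%) in T2. The smallest gap was below it in T1, with 8 of 22 members (36.4%) against 864 of 3851 other genes (22.4%).

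The members came from all large chromosome arms. They made up 3.81% of the genes tested on 3L (46 of 1208), 2.53% on X (27 of 1069), 2.28% on 2L (25 of 1095), 2.196% on 3R (33 of 1503) and 1.44% on 2R (18 of 1250). The share of all genes tested was 2.61%. The fourth chromosome had no member, but its 57 genes tested are too few to set its count apart from that share.

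A group of 12 members share over 20% of their exon length with another gene. On the opposite strand this holds for CG34207, CG30441, CG13025 and Acp95EF, and on the same strand for Trl, Antp, Galphaq, Lasp, Tis11, PRL-1, ftz-f1 and CG5151. Whether the counting used strand is not given in the sources used here, so the values of these 12 are uncertain.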

How the data were processed

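miCLIP and mRNA-seq were made from whole embryos at 6 timepoints, with 1 library per assay and timepoint. The authors trimmed adapters with Flexbar, demultiplexed miCLIP reads and removed PCR duplicates with pyCRAC, mapped reads with Subread to fly genome release r5.45, counted reads per gene with featureCounts and deposited FPKM values made with the DESeq package. Tool versions, gene lengths, size factors and the strand setting are not given in the sources used here. Because FPKM depends on each library's scaling, a ratio between assays depends on it too.

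Ratios were (miCLIP FPKM + 1)/(mRNA-seq FPKM + 1) on the log2 scale. Read numbers were recovered from the FPKM steps (within 0.01 of a whole number) and gave exact Clopper-Pearson 95% intervals on ratios without pseudocount, for counting error alone. Python 3.11.15 with numpy 2.4.6, pandas 2.3.3, scipy 1.17.1 and matplotlib 3.10.9 was used. The steps were tested on simulated data: all 12 read numbers came back in 98.1% of 13374 rows. Of the genes raised over 2-fold 147 of 147 tested were called, and of unchanged genes 0 of 6593. The simulated noise was counting noise alone, so these counts check the steps and give no error rate for the real libraries. Gene structure came from the annotation of BDGP6.54 (Ensembl release 115), which matched 14824 of 14977 rows; no coordinates are given because the builds differ.

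The members and lists were chosen with earlier results of these data known. Genes were named by rule: the 12 members with the largest lowest ratio, the 3 on each side of the threshold, up to 4 per list, the 5 with the highest mRNA-seq level, the 5 largest and 5 smallest ratios in T1 and in T2, the 4 that rose and the 4 that fell most from T3 to T6, the 4 with the widest mRNA-seq range, and Ubx, Sxl, fl(2)d, E2f1 and the m6A writers and readers. Alternatives covered the pseudocount, the minimum, the scaling, the fold threshold and each timepoint left out.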

Additional observations from a re-analysis of the deposited data

Results flagged for a closer look

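Of the 118 members measured in T1, 3 went the opposite way in T1, over 2-fold lower in miCLIP than in mRNA-seq, although over 2-fold higher in each of T3 to T6. Such values were 2.54% of the members and 16.3% of all genes measured in T1 (865 of 5312). Stlk had a log2 ratio of -1.27 (298 miCLIP and 3319 mRNA-seq reads), DCP2, the mRNA decapping enzyme, -1.32 (793 and 9246 reads), and CCDC53, a subunit of the WASH complex, -2.13 (14 and 363 reads). In T2 their ratios were 0.82, 0.97 and 1.13. With 1 library per timepoint, the difference between T1 and the later timepoints was not tested.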

How the results depend on the processing

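Of 92 recomputed summary values 67 stayed within 1.5 times (counts) or the stated tolerance (medians), and none reversed. The 163 genes passing the rule became 68 with an FPKM minimum of 10, 257 without T4, and 434, 50 and 26 at 1.5-, 3- and 4-fold. Members in the lists went from 70 to 26 with the minimum of 10 and to 46 when every library was rescaled to sum to 1000000, where 106 of the 163 members still passed. In T1 the members over 2-fold went from 66 to 38 with that scaling and to 43 with the mitochondrial rRNA rows left out of it. Their T1 median of 1.11 became 0.86 with no minimum, 0.60 and 0.75 under the 2 scalings and 0.83 after centring on all genes. The T2 median of 1.16 became 0.81 when scaled. The median over T3 to T6, 1.81, became 1.70 with the minimum of 10, 1.92 when scaled without the rRNA rows and 1.91 when centred. The gap between the members' and all genes' medians was 0.65 to 0.89 in T1 and 1.14 to 1.22 in T2 over the alternatives. Level scalings added after seeing the data (the same 2, and CPM from recovered reads) changed the nuclear members highest in mRNA-seq in T6 from 11 to 1, 1 and 3, those highest in miCLIP in T5 from 62 to 37, 38 and 31, and the mitochondrial members highest in mRNA-seq in T6 from 13 to 5, 5 and 10. The causes were not tested. Of 65 named members 51 passed in every alternative that kept them. No paired analysis was possible because each assay and timepoint has 1 library, with no replicate number to block on; the ratio itself pairs the assays within a timepoint. Depth limits trnY most, with as few as 6 mRNA-seq reads.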
